A study of Mus musculus with 9 samples.

Results

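The genes described here are 38 nuclear hormone receptors and coregulators of the mouse, chosen by name, of which 35 were measured on a probe set of 1 gene among 19938 genes on the array. Nr1h2, Nr2e3 and the corepressor scaffold Ncor1 were not analysed here, so Nr0b2, a receptor without a DNA-binding domain that acts as a repressor, is the only corepressor among the measured members, and Ppargc1a and Ppargc1b are coactivators. Total RNA was hybridised to Affymetrix Mouse Gene 1.0 ST arrays, 1 array per sample. The 4 control arrays held healthy liver of control monotransgenic Rosa26-lsl-NICD mice, in which the Notch1 intracellular domain (NICD) stays silent behind a stop cassette. The 5 tumour arrays held hepatocellular carcinoma (HCC) of bitransgenic AFP-Cre/Rosa26-lsl-NICD mice, where the promoter of alpha-fetoprotein, active in the hepatoblast lineage, drives Cre, which switches NICD on. Both groups were of the hybrid 129 x C57BL/6 background and 6 to 12 months old, and both carried the Rosa26-lsl-NICD allele. Healthy liver of mice with AFP-Cre was not analysed here, so Cre, NICD and tumour formation cannot be told apart as the difference between the groups. The labels do not tie each array to its own animal, and p-values then measure the spread between these arrays.

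Nuclear receptors are transcription factors with a zinc-finger DNA-binding domain and a ligand pocket. In liver they read the chemical state of the cell: FXR (Nr1h4) binds bile acids, LXR (Nr1h3) oxysterols, CAR (Nr1i3) and PXR (Nr1i2) foreign compounds, and PPAR alpha (Ppara) fatty acids, and all of these act as heterodimers with RXR, mainly Rxra in hepatocytes. Without ligand many of them hold corepressors such as Ncor1 at their target genes, and ligand exchanges these for coactivators of the PGC-1 and p160 families.

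Promoter sequence is shown for Nr1i3 and Ppara, the genes with the largest differences between tumour and control, and for Nr1h4 and Nr0b2, which act in one feedback loop on bile acid synthesis. Each sequence is the 250 bases before the RefSeq transcription start in GRCm38.p6, written 5′ to 3′ on the strand of the gene. Capitals mark every match, on either strand, to 1 of 9 motifs, and a sequence without capitals held none. The windows lie at chr1:171213720-171213969 (+) for Nr1i3, chr15:85735526-85735775 (+) for Ppara, chr10:89506659-89506908 (-) for Nr1h4 and chr4:133553126-133553375 (+) for Nr0b2.
Nr1i3: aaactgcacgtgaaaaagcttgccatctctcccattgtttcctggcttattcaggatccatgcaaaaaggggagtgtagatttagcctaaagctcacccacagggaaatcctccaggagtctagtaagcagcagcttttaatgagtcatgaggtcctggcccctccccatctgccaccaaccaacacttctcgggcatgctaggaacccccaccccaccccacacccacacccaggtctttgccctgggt
Ppara: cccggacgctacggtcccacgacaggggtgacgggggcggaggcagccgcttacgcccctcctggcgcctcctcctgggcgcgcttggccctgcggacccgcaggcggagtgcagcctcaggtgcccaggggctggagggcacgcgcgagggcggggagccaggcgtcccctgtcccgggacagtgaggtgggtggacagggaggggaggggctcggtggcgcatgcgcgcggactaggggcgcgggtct
Nr1h4: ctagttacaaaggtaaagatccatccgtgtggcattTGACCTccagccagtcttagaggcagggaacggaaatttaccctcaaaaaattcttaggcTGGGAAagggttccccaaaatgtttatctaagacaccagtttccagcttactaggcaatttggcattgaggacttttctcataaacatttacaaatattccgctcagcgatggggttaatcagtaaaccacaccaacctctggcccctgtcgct
Nr0b2: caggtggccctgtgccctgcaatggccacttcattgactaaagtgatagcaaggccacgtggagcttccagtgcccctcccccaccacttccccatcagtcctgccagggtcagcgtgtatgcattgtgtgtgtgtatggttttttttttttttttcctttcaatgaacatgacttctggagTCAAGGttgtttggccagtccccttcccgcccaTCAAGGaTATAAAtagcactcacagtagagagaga

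The capitals in Nr1h4 are TGACCT, the nuclear receptor half-site AGGTCA read on the other strand, and TGGGAA, the core of the site bound by Rbpj, the DNA-binding partner of NICD. Those in Nr0b2 are 2 copies of TCAAGG, the core of the site bound by monomeric receptors such as Nr5a2, and a TATA box (TATAAA), which the second copy nearly touches. TCAAGG was added to the search after the Nr0b2 sequence was read. Of the 35 measured genes, 32 had such a window in the RefSeq table, with 50 windows in all. AGGTCA was in 18% of these 50 windows and in 14% of 32851 windows of all genes, TGGGAA in 18% and 21.6%, TCAAGG in 12% and 12.5%, and TATAAA in 12% and 12.4%. Direct repeats of AGGTCA with 1 or 4 bases between them, the half-site extended at its 5′ end by TCA, and sites of the HNF4 and HNF1 types were in none of the 50 windows and in at most 0.387% of all windows. The Ppara window was rich in G and C (76.4%, against a median of 52.4% over all windows), and those of Nr1i3 (53.2%), Nr0b2 (50%) and Nr1h4 (44.4%) were closer to that median.

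All levels below are log2 intensities after RMA, given as mean ± SD with n = 4 control and n = 5 HCC arrays, and differences are HCC minus control on the same log2 scale. A difference of -1 is a level that is 2-fold lower. Groups were compared with limma, with Benjamini-Hochberg adjustment over all 19938 genes and a threshold of 0.05 for the adjusted p.

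None of the 35 genes passed that threshold in either direction (percent of all genes called: 0.858 higher and 0.160 lower). The smallest adjusted p, 0.0961, was that of Esr1, and limma with array weights or with trend and robust estimation also called 0 of the 35. At an unadjusted p below 0.05, 10 were lower and 0 higher in HCC. The 10 are 28.6% of the measured members, and over all genes 9.85% were lower and 10.5% higher at that level. The count of 10 depended on single arrays. It was 4 without control array 3 (7.44% of all genes lower), 5 without control array 2 (8.10%) and 5 without HCC array 4 (8.46%). Without any other single array it lay between 7 and 13. Within the arrays with a high level of Xist, the RNA of the inactive X chromosome, the count was also 10 (7.85% of all genes lower). The arrays of low Xist held a single control, so no count is given for them. The 10 were Nr1h3, Nr1i2, Nr1i3, Ppara, Rxra, Rxrg, Nr3c1, Esr1, Thrb and Nr2f1. A negative difference was found for 29 of the 35 (82.9%, against 57.5% of all genes), and the median difference was -0.19, against -0.033 over all genes. Every HCC array lay below every control array for 2 genes, Nr1i3 and Ppara (5.71%, against 3.86% of all genes), and above for 0 (against 5.63%). The same genes, Nr1i3 and Ppara, were the ones at least 2-fold lower (5.71%, against 1.57% of all genes), and 0 were at least 2-fold higher (against 1.95%).

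**Figure D1:**
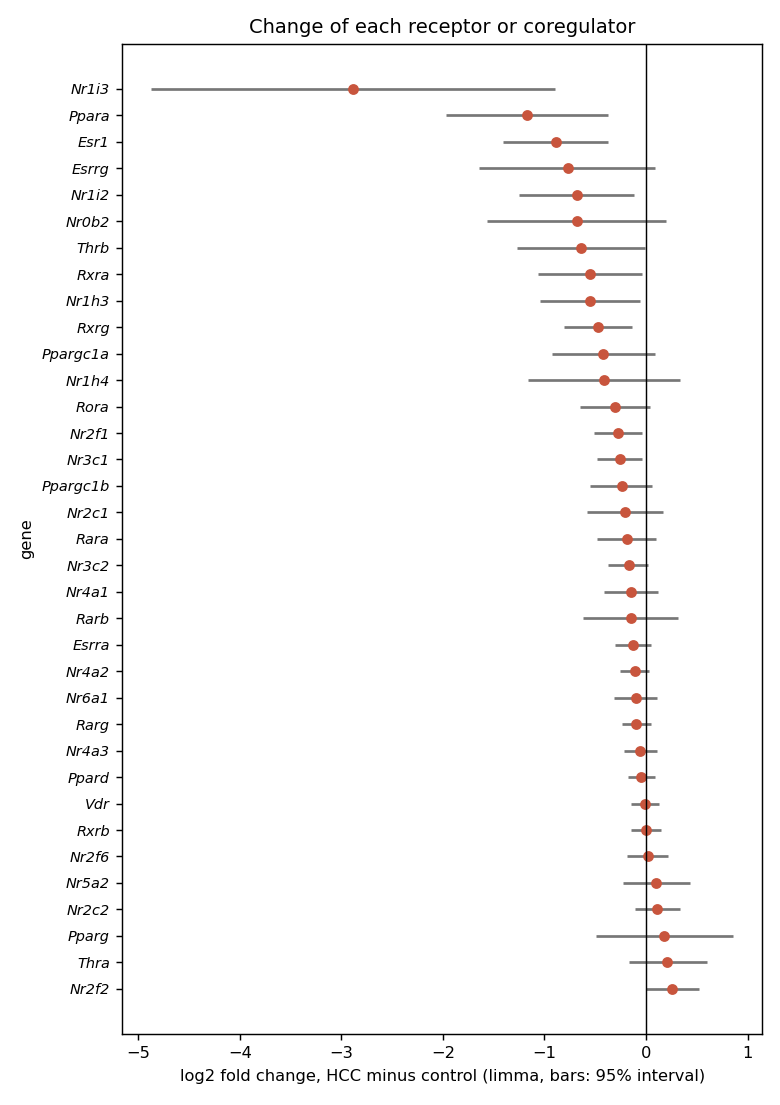
Log2 fold change of HCC against control liver (x axis) for each of the 35 measured genes (y axis), with 95% intervals from limma. Nr1i3 stands farthest from 0 at -2.89 with the widest interval, and the highest value is 0.26 for Nr2f2.

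The xenobiotic sensors had the largest difference. CAR, the product of Nr1i3 (probe set 10351533), controls the phenobarbital-inducible enzymes of the hepatocyte. Nr1i3 measured 11.77, 10.79, 10.82 and 10.79 on control arrays 1 to 4 and 5.82, 9.84, 7.24, 7.39 and 10.49 on HCC arrays 1 to 5. HCC arrays 1, 3 and 4 were far below the controls, HCC array 2 was less far below, and HCC array 5 was the closest to them, so the groups did not overlap but the tumours were split. The means were 11.04 ± 0.48 and 8.15 ± 1.95, a 7.40-fold lower level in HCC (difference -2.89, SE 0.88, 95% interval -4.87 to -0.90, adjusted p = 0.130). The call depended on 1 tumour: without HCC array 5 the difference was -3.47 and passed (adjusted p = 0.0356, with 2.79% of all genes called lower), and without HCC array 1 it was -2.30 (adjusted p = 0.190).

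PXR, the product of Nr1i2, responds to drugs and steroids and induces Cyp3a genes. Nr1i2 measured 8.91, 8.76, 8.77 and 8.0 on the control arrays and 7.41, 8.22, 7.82, 7.71 and 8.48 on the HCC arrays (8.61 ± 0.41 and 7.93 ± 0.43). The groups overlapped through control array 4, which lay below HCC arrays 2 and 5. The difference was -0.68 (95% interval -1.25 to -0.12, adjusted p = 0.180).

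Of 20 listed genes controlled by CAR and PXR, 17 were measured and 0 passed the threshold. At an unadjusted p below 0.05, 9 were lower (52.9%, against 9.85% of all genes). A negative difference was found for 14 (82.4%, against 57.5%), with a median of -1.85, and 11 were at least 2-fold lower (64.7%, against 1.57%). Several of them, such as the Cyp2c genes, belong to families of near copies whose probe sets can share signal. Alas1, the first enzyme of haem synthesis, had the smallest adjusted p of the list (11.62 ± 0.14 and 9.68 ± 0.99, adjusted p = 0.0717). Cyp2b10, the classical CAR target, measured 10.71, 11.80, 11.14 and 9.87 on the control arrays and 6.81, 9.91, 6.72, 6.95 and 9.98 on the HCC arrays. It was lowest on HCC arrays 1, 3 and 4, the same 3 arrays on which Nr1i3 was lowest, and on HCC arrays 2 and 5 it lay just above the lowest control. Cyp3a11, a main PXR target, measured 12.35 to 12.61 on the control arrays and 6.42, 12.77, 9.18, 8.26 and 12.71 on the HCC arrays, so HCC arrays 2 and 5 lay above every control. Gadd45b, a stress gene induced through CAR, did not share this pattern, with 6.36 to 6.52 on the control arrays and 6.30, 6.95, 6.37, 6.24 and 6.31 on the HCC arrays.

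The PPAR receptors differed from each other. PPAR alpha drives fatty acid oxidation in the fasting liver. Ppara (probe set 10425987) measured 10.71, 10.23, 10.13 and 10.14 on the control arrays and 7.98, 9.67, 9.32, 8.79 and 9.88 on the HCC arrays. No HCC array reached the lowest control, and HCC array 1 was the lowest by a wide margin. The means were 10.30 ± 0.28 and 9.13 ± 0.76, a 2.25-fold lower level (difference -1.17, SE 0.36, 95% interval -1.97 to -0.37, adjusted p = 0.130). The adjusted p was 0.0547 without HCC array 5 and 0.140 without HCC array 1, where the difference was -0.88.

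Pparg is the adipogenic PPAR, which is low in normal hepatocytes and rises in fatty liver. It measured 8.92 ± 0.19 in control liver and 9.11 ± 0.65 in HCC (difference 0.18, 95% interval -0.49 to 0.86). Its mean level stood at percentile 84.1 of all genes, so its probe set did not read low on these arrays. HCC array 3, at 9.97, was the highest of the 9 arrays and HCC array 1, at 8.26, the lowest. Without HCC array 3 the difference was -0.033. Ppard, the widely expressed PPAR, was at 6.47 ± 0.07 and 6.42 ± 0.01 (95% interval of the difference -0.18 to 0.084), just below the array medians of 6.52 to 6.66.

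Of 21 listed PPAR alpha targets, 19 were measured and 0 passed. At an unadjusted p below 0.05, 15 were lower (78.9%, against 9.85% of all genes). All 19 had a negative difference (57.5% of all genes had one), with a median of -0.90, and 7 were at least 2-fold lower (36.8%, against 1.57%). Acadm, the medium-chain acyl-CoA dehydrogenase, had the smallest adjusted p (0.0799). Cyp4a14, a fatty acid omega-hydroxylase and one of the most inducible targets, measured 11.92 to 13.38 on the control arrays and 5.33, 9.73, 8.53, 5.85 and 12.04 on the HCC arrays. Cpt2, the inner-membrane carnitine palmitoyltransferase, measured 10.80 to 10.93 on the control arrays and 8.29, 10.00, 10.01, 9.12 and 10.58 on the HCC arrays. The mean over the 19 targets was 8.41, 9.66, 9.52, 8.68 and 10.05 on HCC arrays 1 to 5, against 10.12 to 10.60 on the control arrays. From low to high, the HCC arrays stood in the order 1, 4, 3, 2, 5 for Ppara and for this mean alike. The mean of the 7 measured hepatocyte markers took the same order (12.49, 12.59, 12.67, 12.78 and 13.01, against 12.95 to 13.15 on the control arrays), and its part in the result was not tested. In bulk tissue, fewer hepatocytes and less RNA per hepatocyte cannot be told apart. Ehhadh, Acaa1b and Cyp4a10 are also PPAR alpha targets, and on HCC array 5 they measured 10.50, 10.16 and 11.73, within or above their control ranges of 10.29 to 10.99, 9.36 to 9.91 and 11.57 to 12.36.

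**Figure D2:**
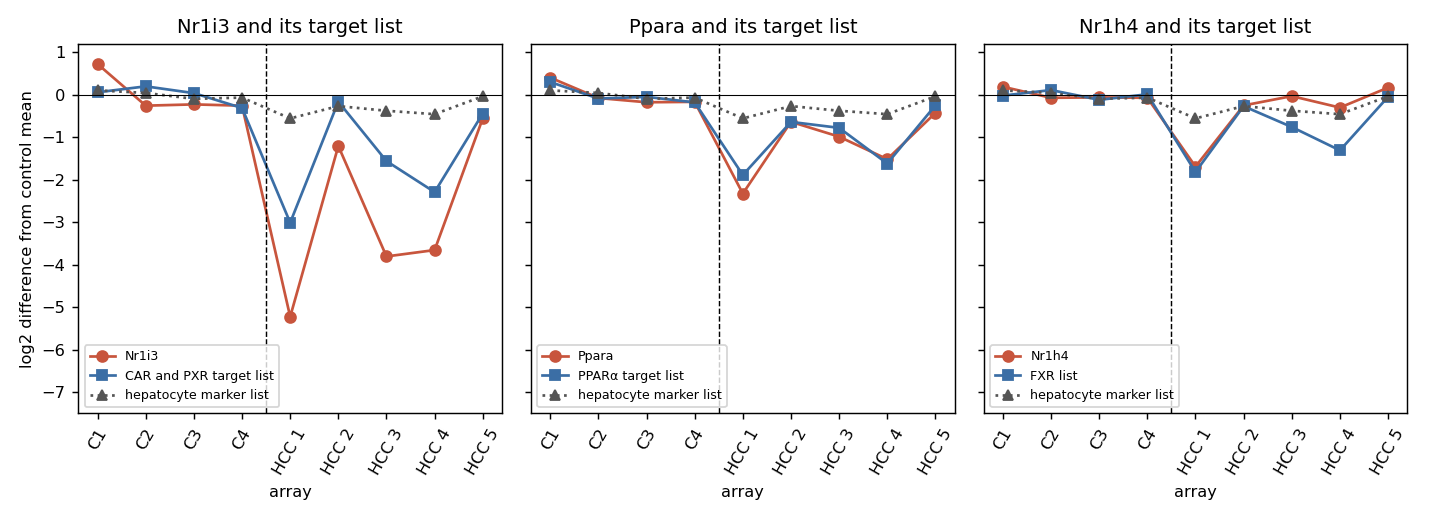
Log2 level of a receptor, mean of its target list and mean of the hepatocyte marker list on each array (x axis: C1 to C4, control liver; HCC 1 to HCC 5), each minus its mean in the control livers (y axis, log2 units). Nr1i3 and the CAR and PXR list are both lowest on HCC array 1 and closest to the controls on HCC arrays 2 and 5. Ppara and its list run side by side, and Nr1h4 is closer to 0 than the FXR list on HCC arrays 3 and 4. The FXR list holds genes that the axis represses as well as genes that it induces.

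Of 10 genes listed for PPAR gamma 9 were measured, and Lpl, the lipoprotein lipase, rose from 6.65 ± 0.40 to 10.07 ± 0.73 (difference 3.42, adjusted p = 0.00748). It passed under 17 of 20 alternatives, with the omission of control array 3 and the fits within the arrays of high or of low Xist as the exceptions. The other 8 did not pass and the list median was -0.22, with the fatty acid binding protein Fabp4 at 8.53 ± 0.32 and 9.52 ± 0.62 and the lipid droplet protein Cidec at 6.94 ± 0.16 and 6.63 ± 0.32.

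Among the bile acid and sterol sensors, the difference of Nr1h4 lay mostly in 1 tumour. Nr1h4 measured 11.28, 11.02, 11.03 and 11.02 on the control arrays and 9.40, 10.84, 11.06, 10.79 and 11.26 on the HCC arrays. Except for HCC array 1 the tumours were close to the controls, and 2 of them exceeded the control median. The means were 11.09 ± 0.13 and 10.67 ± 0.73 (difference -0.41, 95% interval -1.16 to 0.33, adjusted p = 0.503), and without HCC array 1 the difference was -0.097. Nr0b2 (SHP) is induced by FXR and in turn represses bile acid synthesis by acting against Nr5a2. It measured 8.66, 9.25, 8.94 and 8.15 on the control arrays and 6.72, 8.67, 8.27, 8.15 and 8.53 on the HCC arrays. HCC array 1 was again the one far below, and without it the difference went from -0.68 to -0.34. Nr5a2 (LRH-1), which opposes SHP at its targets, measured 9.97 ± 0.10 and 10.07 ± 0.29 (95% interval of the difference -0.23 to 0.43). Nr1h3 (LXR alpha), the oxysterol sensor, measured 8.44, 9.17, 8.87 and 8.70 on the control arrays and 7.78, 8.60, 8.41, 7.85 and 8.58 on the HCC arrays. The groups overlapped, with HCC arrays 1 and 4 apart from the rest, and the difference was -0.55 (95% interval -1.04 to -0.063, adjusted p = 0.204). Without HCC array 1 it was -0.44.

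Of 13 genes of the FXR axis, all measured, 0 passed and 6 were lower at an unadjusted p below 0.05 (46.2%, against 9.85% of all genes). A negative difference was found for 12 (92.3%, against 57.5% of all genes), and the median was -0.81. The list mixes genes that the axis induces with genes that it represses, so these values and the list mean are not a readout of FXR activity. The bile acid uptake transporter Slc10a1, which the axis represses, had the smallest adjusted p (12.74 ± 0.11 and 10.48 ± 1.52, adjusted p = 0.123). Cyp7a1 (difference -1.19) and Cyp8b1 (-2.07), enzymes of bile acid synthesis, are also repressed by the axis. The mean of the list was 8.33, 9.88, 9.39, 8.84 and 10.10 on HCC arrays 1 to 5, against 10.03 to 10.26 on the control arrays. HCC arrays 1 to 4 were thus below every control in the list mean. Of these, only HCC array 3 lay within the control range of Nr1h4 (11.06, controls 11.02 to 11.28). Of 11 LXR targets, all measured, 0 passed and the median was -0.20. At an unadjusted p below 0.05, 5 were lower (45.5%, against 9.85% of all genes). Mylip, which promotes breakdown of the LDL receptor, had the smallest adjusted p (7.85 ± 0.17 and 7.28 ± 0.21, adjusted p = 0.0645), and every HCC array was below every control for it and for Abcg5 and Abcg8, which together form the sterol exporter (3 of 11, against 3.86% of all genes). Abca1, the other well-known LXR target in cholesterol efflux, was at 8.59 to 9.14 on the HCC arrays and 8.77 to 9.32 on the control arrays.

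**Figure D3:**
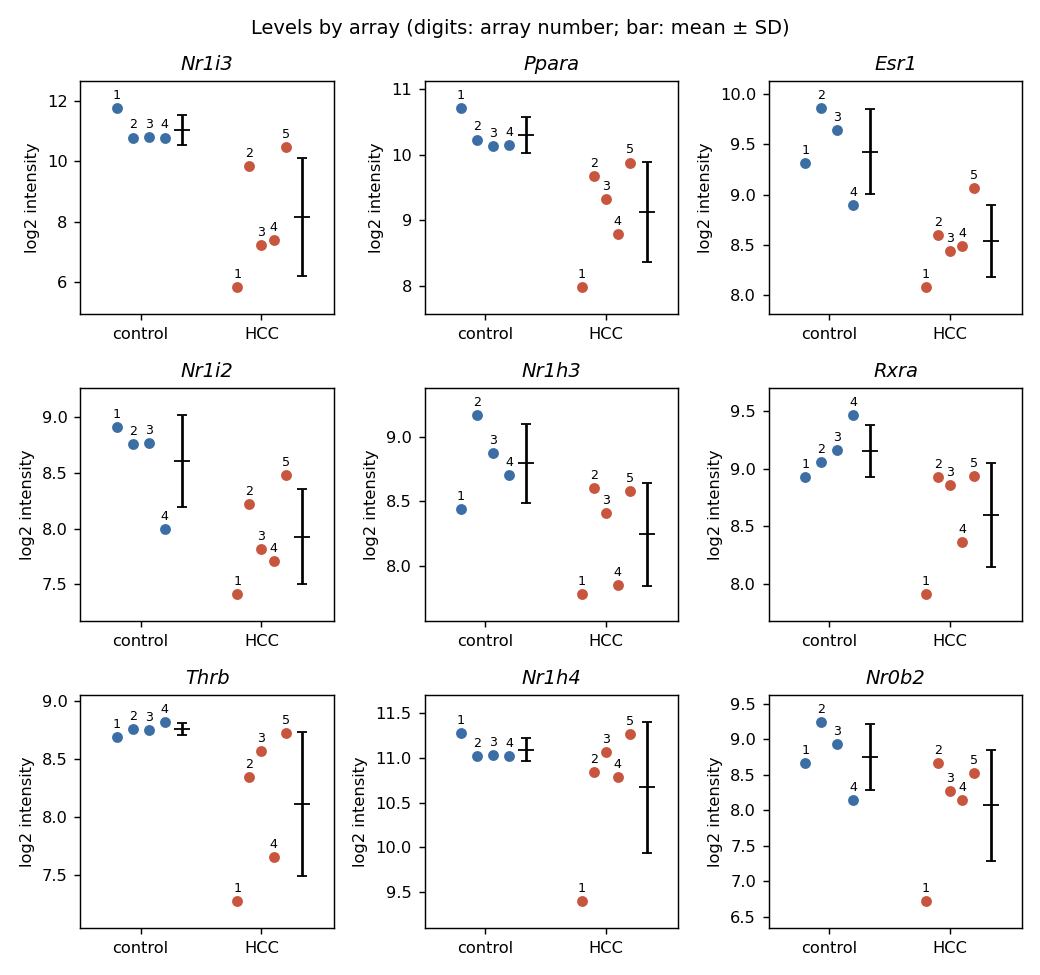
Log2 intensity (y axis) of 9 receptors on each array of control liver (blue) and HCC (red), with the array number above each point and black bars for mean ± SD. HCC array 1 is the lowest of all 9 arrays in every panel, and HCC array 5 is the highest tumour in all panels but those of Nr1h3 and Nr0b2.

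The retinoid receptors and their partners had small differences. Rxra, the shared partner of the sensors above, measured 8.93, 9.06, 9.16 and 9.47 on the control arrays and 7.91, 8.93, 8.86, 8.36 and 8.94 on the HCC arrays. HCC arrays 1 and 4 were lower than the rest and the groups met at 8.93 (difference -0.55, 95% interval -1.06 to -0.044, adjusted p = 0.216). Rxrg, the RXR typical of muscle and brain, measured 6.27, 6.56, 6.62 and 6.68 on the control arrays and 5.61, 6.29, 6.05, 6.08 and 6.27 on the HCC arrays, with an overlap only at the lowest control (difference -0.47, 95% interval -0.81 to -0.14, adjusted p = 0.138). Its mean level stood at percentile 35.3 of all genes, and no detection calls were used. Rxrb, the widely expressed RXR, was at 6.69 ± 0.03 and 6.69 ± 0.10. The retinoic acid receptors Rara (7.34 ± 0.06 and 7.15 ± 0.26), Rarb (8.18 ± 0.32 and 8.02 ± 0.36) and Rarg (6.74 ± 0.08 and 6.64 ± 0.06) had adjusted p between 0.420 and 0.704. Rora, which activates clock genes through ROR elements, measured 8.94 ± 0.10 and 8.63 ± 0.31 (95% interval of the difference -0.65 to 0.036), with HCC array 3, at 9.15, above every control.

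Of 8 genes listed for retinoic acid signalling 7 were measured, and Tgm2, the tissue transglutaminase, rose from 8.82 ± 0.46 to 10.47 ± 0.43 (3.12-fold, adjusted p = 0.0347). It measured 8.42 to 9.28 on the control arrays and 9.72 to 10.74 on the HCC arrays. It passed under 10 of 20 alternatives, and of the omissions of 1 array only that of HCC array 5 kept the call. The other 6 did not pass. Among them the most specific retinoic acid target, the degrading enzyme Cyp26a1, measured 7.35 to 8.61 on the control arrays and 6.53 to 8.91 on the HCC arrays. Of 16 clock genes 14 were measured and 0 passed. At an unadjusted p below 0.05, 5 were lower and 1 higher (of all genes, 9.85% and 10.5%). Cry2, a clock repressor, had the smallest adjusted p (7.21 ± 0.09 and 6.88 ± 0.15, adjusted p = 0.104). Nr1d1, the receptor that competes with Rora, ranged from 8.30 to 9.53 among the control arrays, and the time of tissue collection was not given in the sources used here.

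Among the steroid receptors, Esr1 had the smallest adjusted p of the 35 genes. Esr1 (probe set 10367600) encodes oestrogen receptor alpha, the main oestrogen receptor of hepatocytes. It measured 9.31, 9.86, 9.64 and 8.90 on the control arrays and 8.08, 8.60, 8.44, 8.49 and 9.07 on the HCC arrays. HCC arrays 1 to 4 were below every control, and HCC array 5 was above control array 4. The means were 9.43 ± 0.42 and 8.53 ± 0.36, a 1.86-fold lower level (difference -0.89, SE 0.23, 95% interval -1.41 to -0.37, adjusted p = 0.0961). Without HCC array 5 the difference was -1.03 and passed (adjusted p = 0.0314, with 2.79% of all genes called lower). Without HCC array 1 it was -0.78 (adjusted p = 0.156). The adjusted p was 0.198, 0.210 and 0.227 without control arrays 1, 2 and 3 in turn.

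Esr1 was lowest in control liver on control array 4, which differed from the other controls in Xist. Xist measured 10.68 to 11.76 on control arrays 1 to 3 with 11.14 and 11.13 for HCC arrays 1 and 2. It measured 4.83 to 5.10 on control array 4 and HCC arrays 3 to 5. The arrays of low Xist were not uniform in the Y-linked genes Eif2s3y, Kdm5d and Uty. These measured 9.10, 8.65 and 7.84 on control array 4, 8.96, 6.21 and 8.26 on HCC array 3, and 8.96, 8.40 and 7.84 on HCC array 5. On HCC array 4 they were 6.05, 6.05 and 5.29, against at most 3.86, 5.75 and 5.02 on the arrays of high Xist. Within the arrays of high Xist the difference of Esr1 was -1.26 (adjusted p = 0.0875), and within those of low Xist, with 1 control, it was -0.24 (adjusted p = 0.938). A limma fit that included Xist as a term gave -0.88 (adjusted p = 0.120). For Nr1i2 the differences were -1.0 within the high and -0.00026 within the low arrays. For Nr1i3 the values were -3.29 and -2.42, and for Ppara -1.53 and -0.81. Whether the difference depends on Xist was not tested, since 1 control array had low Xist.

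Nr3c1, the glucocorticoid receptor, measured 9.33, 9.43, 9.32 and 9.18 on the control arrays and 8.86, 9.06, 9.18, 8.92 and 9.25 on the HCC arrays. The differences among arrays were small and the groups overlapped at the upper HCC arrays (difference -0.26, 95% interval -0.48 to -0.038, adjusted p = 0.191). Nr3c2, the mineralocorticoid receptor, was at 6.67 ± 0.14 and 6.50 ± 0.10. Of 15 listed glucocorticoid targets 14 were measured and 13 had a negative difference (92.9%, against 57.5% of all genes). Pck1, the gluconeogenic phosphoenolpyruvate carboxykinase, fell from 12.07 ± 0.11 to 10.72 ± 0.53 (2.55-fold, adjusted p = 0.0460). Pck1 measured 11.95 to 12.18 on the control arrays and 10.22 to 10.66 on HCC arrays 1 to 4, while HCC array 5 had 11.62. It passed under 10 of 20 alternatives, and of the omissions of 1 array only that of HCC array 5 kept the call. Pck1 is also controlled by other receptors and hormones. The other 13 did not pass, with a list median of -0.87. Among them Tsc22d3 was at 8.58 ± 0.11 and 7.73 ± 0.47. Sgk1, a kinase induced by the hormone in many tissues, was at 7.0 to 7.10 on the control arrays and 6.90 to 7.35 on the HCC arrays.

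The thyroid hormone receptors differed in sign. Thrb, the main form in liver, measured 8.69, 8.76, 8.75 and 8.82 on the control arrays and 7.28, 8.34, 8.57, 7.66 and 8.72 on the HCC arrays. HCC arrays 1 and 4 were far lower and HCC array 5 lay within the control range, so the SD was 0.05 in control liver and 0.62 in HCC (difference -0.64, 95% interval -1.27 to -0.011, adjusted p = 0.240). Without HCC array 1 the difference was -0.43. Thra, the form typical of other tissues, was at 7.21 ± 0.26 and 7.43 ± 0.30 (95% interval of the difference -0.17 to 0.60). Of 7 listed targets 6 were measured and 0 passed, with a median of -0.72. Of the 6, 3 were lower at an unadjusted p below 0.05, against 9.85% of all genes. Thrsp, a regulator of lipogenesis with a strong response to the hormone, measured 12.35 to 12.94 on the control arrays and 9.65 to 10.05 on HCC arrays 1 to 4, while HCC array 5 had 12.53 (adjusted p = 0.0871). Dio1, the deiodinase that is a sensitive readout of the hormone in liver, measured 7.67 to 9.42 on the control arrays and 6.43, 8.55, 6.56, 6.21 and 8.97 on the HCC arrays. Vdr, the vitamin D receptor, which hepatocytes hardly express, was at 5.66 ± 0.03 and 5.65 ± 0.07, and 5 of 9 arrays had an equal value.

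Esrrg, an oestrogen-related receptor that acts with PGC-1 coactivators on energy metabolism, split the tumours in another way. It measured 8.01, 7.79, 8.30 and 7.63 on the control arrays and 6.40, 6.51, 8.36, 6.90 and 7.63 on the HCC arrays. HCC arrays 1, 2 and 4 were below the controls, while HCC array 3 was above every control and HCC array 5 level with control array 4 (difference -0.77, 95% interval -1.64 to 0.093, adjusted p = 0.290). Within the arrays of high Xist the difference was -1.58 and passed (adjusted p = 0.0427, with 0.567% of all genes called lower), and within those of low Xist it was 0.00015, a contrast with 1 control array that was not tested as such. Ppargc1a (PGC-1 alpha), the coactivator of fasting metabolism, measured 10.12, 10.14, 10.38 and 9.57 on the control arrays and 9.60, 9.60, 10.30, 9.38 and 9.29 on the HCC arrays. As with Esrrg, HCC array 3 alone stayed at the level of control arrays 1 to 3 (difference -0.42, 95% interval -0.93 to 0.089, adjusted p = 0.324), and a second probe set gave -0.37. Ppargc1b was at 6.95 ± 0.13 and 6.70 ± 0.26, and Esrra, the receptor that PGC-1 co-activates at mitochondrial genes, at 6.68 ± 0.15 and 6.55 ± 0.05. Of 10 listed targets 8 were measured and 0 passed, with a median of -0.21. At an unadjusted p below 0.05, 3 were lower (37.5%, against 9.85% of all genes). Acadm, also a PPAR alpha target, was the one with the smallest adjusted p.

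The immediate early receptors Nr4a1 (6.41 ± 0.17 and 6.26 ± 0.19), Nr4a2 (6.19 ± 0.05 and 6.08 ± 0.07) and Nr4a3 (4.46 ± 0.09 and 4.41 ± 0.09) had mean levels between percentiles 6.31 and 36.8 of all genes, with adjusted p between 0.358 and 0.708. Nr4a genes act without a known natural ligand and are induced within minutes by stress. Of 14 other immediate early genes, all measured, 9 had a positive and 5 a negative difference (35.7% negative, against 57.5% of all genes). Ier2 rose from 7.06 ± 0.18 to 7.53 ± 0.06 (1.38-fold, adjusted p = 0.0497). Ier2 passed under 3 of 20 alternatives, namely the filter on low genes, the mean of probe sets and the omission of HCC array 5. The other 13 did not pass, among them the AP-1 subunit Jun (8.40 ± 0.74 and 9.23 ± 0.30).

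Among the other orphan receptors, Nr2f1 (COUP-TFI) measured 6.05, 6.36, 6.13 and 5.98 on the control arrays and 5.80, 5.95, 5.98, 5.63 and 5.91 on the HCC arrays. The highest HCC array met the lowest control, and its mean level stood at percentile 28.4 of all genes (difference -0.28, 95% interval -0.51 to -0.043, adjusted p = 0.189). Its relative Nr2f2 (COUP-TFII), found in endothelium and mesenchyme, was at 8.01 ± 0.15 and 8.27 ± 0.19 (difference 0.26, 95% interval -0.0051 to 0.52, adjusted p = 0.252), the highest difference among the 35 genes. The testicular receptors Nr2c1 (7.40 ± 0.26 and 7.20 ± 0.28) and Nr2c2 (8.94 ± 0.12 and 9.05 ± 0.16), Nr2f6 (7.30 ± 0.02 and 7.31 ± 0.17) and the germ cell factor Nr6a1 (7.78 ± 0.21 and 7.68 ± 0.02) had adjusted p between 0.505 and 0.940.

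Of 13 receptors of the superfamily listed besides these, 11 were measured and 0 passed, also with 0 at an unadjusted p below 0.05, and the median was -0.047, with Esrrb as the one with the smallest adjusted p (0.330). Hnf4a, the orphan receptor that maintains the hepatocyte, was looked up after its values were seen. It measured 10.15, 10.04, 10.04 and 10.22 on the control arrays and 9.16, 10.22, 9.84, 10.02 and 10.25 on the HCC arrays (95% interval of the difference -0.68 to 0.25). Of 19 other coregulators 18 were measured and 0 passed. At an unadjusted p below 0.05, 3 were higher and 1 lower (of all genes, 10.5% and 9.85%). The difference was positive for 13 and negative for 5 (27.8% negative, against 57.5% of all genes), with a median of 0.14. Ncoa4, also the receptor for ferritin breakdown, had the smallest adjusted p (10.73 ± 0.12 and 10.19 ± 0.32, adjusted p = 0.123). Hdac3, the enzyme of the Ncor complexes, measured 7.17 to 7.43 on the control arrays and 7.43 to 7.55 on the HCC arrays, and the coactivator Ep300 8.75 ± 0.19 and 9.13 ± 0.21.

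The tumours differed among themselves more than the controls did. The SD was larger in HCC than in control liver for 28 of the 35 genes (80.0%, against 67.9% of all genes). HCC array 1 alone was lowest among the tumours for 15 of the 35 genes, HCC array 4 for 9, and HCC arrays 2, 3 and 5 for 4, 2 and 5. For 9 of the 10 genes with an unadjusted p below 0.05 the lowest tumour was HCC array 1, and for the other one, Nr2f1, it was HCC array 4. How often HCC array 1 was the lowest tumour among all genes was not counted. On HCC array 1, 24 of the 35 genes lay below every control (31.3% of all genes did), against 21 on HCC array 4 (31.9%), 15 on HCC array 2 (35.0%), 14 on HCC array 3 (27.5%) and 12 on HCC array 5 (25.2%). The median difference of the 35 genes from the control mean was -0.37, -0.19, -0.08, -0.23 and -0.14 on HCC arrays 1 to 5. Over all genes that median was -0.026, -0.048, -0.025, -0.030 and -0.023.

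**Figure D4:**
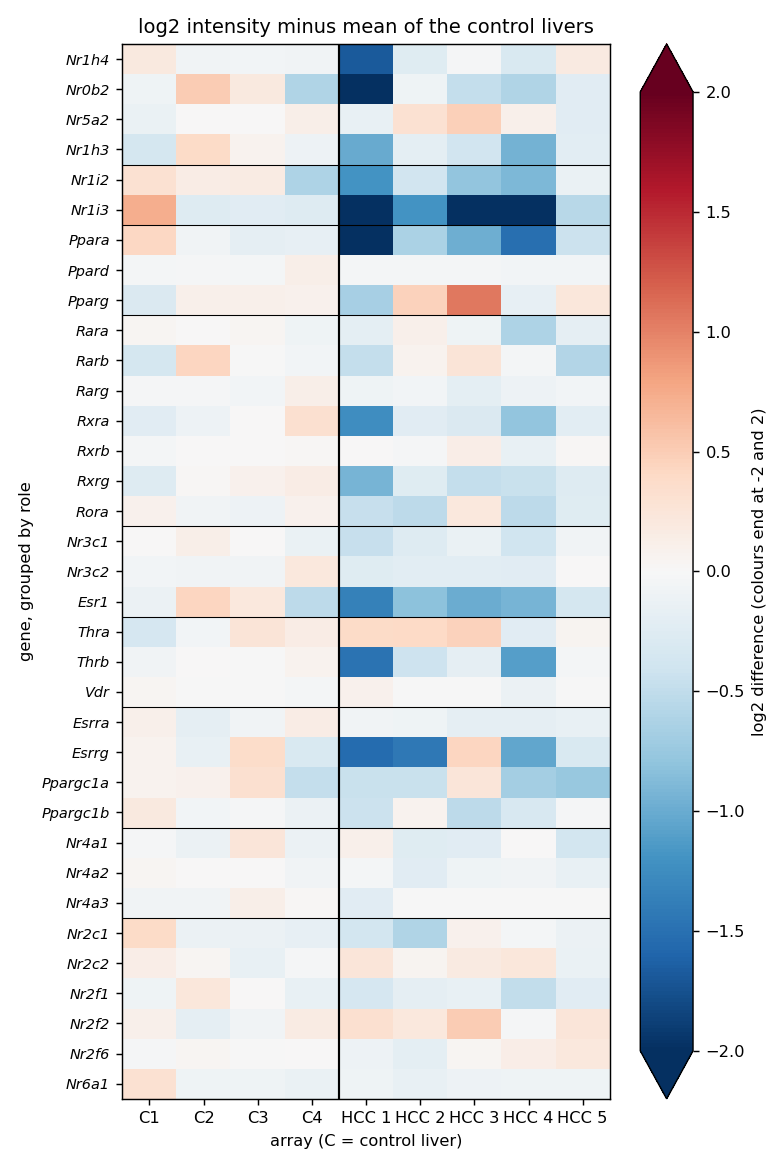
Log2 intensity minus the mean of the control livers (colour, blue for lower) for the 35 genes (rows, grouped by role) on the 9 arrays (columns, C for control liver). HCC arrays 1 and 4 are the bluest columns, with Nr1i3, Ppara, Nr0b2, Nr1h4 and Thrb at their lowest on HCC array 1.

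For several lists of markers of other cell types, the mean was highest or lowest on HCC array 1. HCC array 1 had the highest mean of the bile duct markers (8.71, against 6.96 to 7.68 on the other tumours and 6.24 to 6.33 in control liver). Of 7 such markers 5 were measured, and all 5 had a positive difference (57.5% of all genes had a negative one). Sox9 passed (adjusted p = 0.0228), and Cftr was at 10.85 on HCC array 1. Without Cftr the mean on HCC array 1 was 8.18, against 7.25 to 7.89 on the other tumours and 6.53 to 6.71 in control liver. The markers differed in their highest tumour, which was HCC array 4 for Sox9 (10.24) and HCC array 2 for Epcam (7.74) and Krt7 (7.95), and Krt7 was lowest on HCC array 1 among the tumours. The same array had the lowest mean of 8 macrophage markers (6.90, against 7.90 to 9.56 on the other tumours and 8.15 to 9.24 in control liver), of 7 endothelial markers (7.25, against 7.91 to 8.65 and 8.30 to 8.53) and of 8 stellate cell markers (7.62, against 7.96 to 8.35 and 8.06 to 8.20). Single markers of these 3 lists disagreed on HCC array 1. Vsig4 (5.14), Clec4g (5.82) and Lrat (6.26) lay below every control there. Cd68 (9.35), Pecam1 (8.61), Reln (8.68), Col1a1 (7.52) and Col3a1 (7.18) lay above every control. The mean of 6 lymphocyte markers was 6.30 to 7.24 on the HCC arrays and 6.58 to 6.82 on the control arrays. The part of these cell types in the levels of the receptors was not tested. Albumin (Alb) was at 13.02 to 13.56 on the HCC arrays and 13.47 to 13.66 on the control arrays, near the top of the array scale. All 7 measured hepatocyte markers of 8 had a negative difference (57.5% of all genes had one) and 0 passed. At an unadjusted p below 0.05, 2 were lower (28.6%, against 9.85% of all genes). Cps1, the first enzyme of the urea cycle, was lower on every HCC array (11.79 to 12.99) than on every control array (13.15 to 13.40).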

How the data were processed

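Total RNA of 4 control livers and 5 HCC was hybridised to 1 array each (Affymetrix Mouse Gene 1.0 ST). The authors summarised probe sets with RMA, per the submitters' processing notes, and deposited linear intensities (3.91 to 21468). Per the series' design text they used GenePattern and R, with versions not given in the sources used here. RMA normalises arrays to each other, so only relative levels can be read. Equal values (within 1e-06 log2) on at least 4 arrays were found for 4 of the 35 members and 11.9% of all genes. Array medians were 91.5 to 101 intensity units, and the number of arrays limits the precision.

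The intensities were taken to log2 with no pseudocount. Of 35512 probe sets, 21789 had 1 symbol in the platform annotation, 1621 several and 12102 none; 21698 matched the RefSeq gene table of GRCm38.p6 by Entrez identifier. The probe set with the highest mean was kept for each of 19938 genes. Groups were compared with limma 3.58.1 (lmFit, eBayes) in R 4.3.3 over all 9 arrays, two-sided, with Benjamini-Hochberg adjustment, and the fit was tested on simulated data. Promoters came from RefSeq. Python 3.11.15, pandas 2.3.3, numpy 2.4.6 and matplotlib 3.10.9 were used.

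The members, lists and alternatives were chosen with earlier results of these data known. Named in full were members past the threshold, without overlap or at least 2-fold changed, and other members by role. Of each list, members past the threshold (up to 4) or the one with the smallest adjusted p were named; further examples were picked with their values in view. The alternatives were a filter on low genes, normalisation, centring, variance model, array weights, probe set rule, replicate number, Xist and the omission of each array.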

Additional observations from a re-analysis of the deposited data

Results flagged for a closer look

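In 70 groups of arrays (35 genes in 2 groups) 1 array stood apart from the others of its group in 14 cases (20%). Over all genes this share was 13.5%, above the 1 in 20 that chance gives in independent normal values, and the genes share the same 9 arrays. On HCC array 1, Nr1h4 was at 9.40 (others 10.79 to 11.26), Nr0b2 at 6.72 (8.15 to 8.67) and Nr4a3 at 4.24, where the other 4 tumours had the equal value of 4.45. HCC array 5 was high in Nr3c2 (6.68, others 6.43 to 6.47), and HCC array 2 was low in Nr6a1 (7.63, others 7.68 to 7.69). Control array 1 was high in Nr1h4 (11.28, others 11.02 to 11.03), Nr1i3 (11.77, others 10.79 to 10.82), Nr2c1 (7.79, others 7.24 to 7.29) and Nr6a1 (8.08, others 7.65 to 7.69) and low in Pparg (8.64, others 9.01 to 9.02). Control array 4, the control with low Xist, was low in Nr1i2 (8.0, others 8.76 to 8.91) and high in Ppard (6.58, others 6.43 to 6.44), Rarg (6.85, others 6.69 to 6.71) and Nr3c2 (6.88, others 6.60 to 6.62).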

How the results depend on the processing

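No member was higher in HCC past the threshold under any of 20 alternatives, 18 planned and 2 added after seeing the data (fits within the arrays of high or of low Xist). The count of lower members, 0, became 1 with the replicate number as a block (Nr1h3, difference -0.64, adjusted p = 0.0474; this fit called 1.10% of all genes lower, against 0.160%) and 1 within the arrays of high Xist (Esrrg). When 1 array was left out it ranged from 0 to 2, the 2 being Nr1i3 and Esr1 without HCC array 5. The causes were not tested. Replicate numbers were not treated as pairs, since same-numbered arrays correlated at -0.004, 0.32, -0.029 and -0.083 in their deviations from the group means and 1 of 4 controls correlated best with its own number. The median difference of the members, -0.19, was -0.31 when only genes above the median level were kept, which leaves 23 of the 35, and -0.059 within the arrays of low Xist, where 4 arrays remain; without 1 array it ranged from -0.22 to -0.17. Signs turned for small differences, and within the low Xist arrays also for larger ones. Vdr was 0.019 after repeated quantile normalisation, 0.012 with the Xist covariate and 0.027 within the high Xist arrays. Nr2f6 was -0.028 after quantile normalisation, -0.0051 with array medians subtracted, -0.034 with the replicate block, -0.043 with the Xist covariate and -0.15 within the high Xist arrays. Rxrb was 0.027 with array weights and 0.0029 within the high Xist arrays, and Pparg -0.069 within the latter. Within the low Xist arrays Nr1h4 was 0.019, Nr0b2 0.17, Thra -0.057, Esrrg 0.00015, Ppargc1a 0.088, Nr2c1 0.14 and Nr6a1 0.038. Over all 9 arrays Nr1h4 was -0.41, Nr0b2 -0.68, Esrrg -0.77 and Ppargc1a -0.42. With 1 array left out, Pparg ranged from -0.033 to 0.39, Rxrb from -0.033 to 0.033, Vdr from -0.035 to 0.016, Nr2f6 from -0.034 to 0.068 and Nr6a1 from -0.14 to 0.0016. Signal near the array medians limits what can be said of 12 members whose mean lay below that of the median gene.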
